A study of Mus musculus with 6 samples.

Results

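The mast cell chymase family of the mouse comprises the granule protease genes Mcpt1, Mcpt2, Mcpt4, Mcpt8 and Cma1 and the transcribed pseudogene Mcpt-ps1. The members are 6 of 18193 genes that have a probe set with a single symbol in the platform annotation, and each of the 6 has 1 such probe set among 45037 that are not controls. They were measured on Affymetrix 3 prime arrays from C57BL/6J bone marrow cells that are c-Kit+, Sca-1+ and lineage negative (KSL cells), the gate of blood stem and early progenitor cells. Before hybridisation the KSL cells spent 7 days in culture above a layer of human umbilical vein endothelial cells, without serum and with 5 mouse cytokines. All 6 arrays share these conditions and differ in the added agent, PBS in 3 biological replicates and mD1R in 3. The labels do not spell out mD1R, which is known as a soluble recombinant form of Delta-like 1, a mouse ligand of Notch receptors, made to attach to endothelium. KSL cells were sorted a second time at the end of culture, and their RNA was hybridised. The comparison asks how mD1R altered the transcripts of cells recovered in the same gate. The labels do not say whether the replicates came from separate animals, so p-values measure the spread between these cultures.

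Chymases are serine proteases stored in the secretory granules of mast cells, bound to the sulfated sugar chains of the proteoglycan serglycin. Cathepsin C removes a short activation peptide before storage, and the enzymes are released when mast cells degranulate. Mcpt1 and Mcpt2 are known as genes of mucosal mast cells, such as those of the gut lining. Mcpt4 and Cma1 are typical of connective tissue mast cells, as in the skin and peritoneum. Mcpt8 is a basophil protease gene that stands apart from the chymases proper in its cell type. Mcpt-ps1 is transcribed, but RefSeq annotates it as a pseudogene.

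All 6 genes lie in 1 cluster on chromosome 14. In the RefSeq gene table (assembly GRCm38.p6), where the 6 genes were found by their Entrez identifiers, the order is Cma1, Mcpt-ps1, Cma2, Mcpt1, Mcpt2, Mcpt9, Mcpt4 and Mcpt8, followed by Ctsg and the granzyme genes from Gzme to Gzmb. The annotated span of Mcpt-ps1 overlaps that of Cma2, and the span of Mcpt2 overlaps that of Mcpt9. These genes are close relatives, and a probe set can bind a relative's transcript, so the signal of each gene may hold some of another's. Some of the promoters are close as well. The 250 bases before the annotated transcription start follow for the 4 members found in the RefSeq promoter table, on the strand of the gene. They lie at chr14:56017714-56017963 (plus strand) for Mcpt1, chr14:56062311-56062560 (minus) for Mcpt4, chr14:55944676-55944925 (minus) for Cma1 and chr14:56085198-56085447 (minus) for Mcpt8, all in build GRCm38.p6. Capitals mark GATA letters on either strand (TGATAA or AGATAA or TGATAG or AGATAG) and TATA letters on the gene's strand (TATAAA).
Mcpt1: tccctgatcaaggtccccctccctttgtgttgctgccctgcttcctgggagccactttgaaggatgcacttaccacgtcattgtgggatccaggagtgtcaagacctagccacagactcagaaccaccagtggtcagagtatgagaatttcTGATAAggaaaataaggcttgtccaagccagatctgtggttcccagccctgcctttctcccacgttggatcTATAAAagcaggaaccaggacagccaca
Mcpt4: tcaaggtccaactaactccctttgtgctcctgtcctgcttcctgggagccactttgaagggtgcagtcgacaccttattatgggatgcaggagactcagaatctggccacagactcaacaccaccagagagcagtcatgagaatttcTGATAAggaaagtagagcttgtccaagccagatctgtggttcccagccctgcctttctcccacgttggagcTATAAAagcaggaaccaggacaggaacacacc
Cma1: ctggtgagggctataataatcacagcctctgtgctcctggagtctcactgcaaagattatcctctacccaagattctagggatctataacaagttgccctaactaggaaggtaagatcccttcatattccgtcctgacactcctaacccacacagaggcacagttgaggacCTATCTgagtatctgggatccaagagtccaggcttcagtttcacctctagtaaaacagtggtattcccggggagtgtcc
Mcpt8: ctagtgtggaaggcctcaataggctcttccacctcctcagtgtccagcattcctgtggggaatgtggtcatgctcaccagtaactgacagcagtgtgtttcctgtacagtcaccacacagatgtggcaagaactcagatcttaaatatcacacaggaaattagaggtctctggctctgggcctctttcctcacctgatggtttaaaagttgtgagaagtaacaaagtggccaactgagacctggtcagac

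In a global alignment without a penalty for end gaps, the Mcpt1 and Mcpt4 promoters had 209 identical bases of 242 aligned, or 86.4%. Windows could thus shift against each other. Their longest identical run was 53 bases, from base 83 to base 31 before the start in Mcpt1 and from base 87 to base 35 in Mcpt4. Both held TGATAA, at bases 99 to 94 in Mcpt1 and 103 to 98 in Mcpt4, and TATAAA, at bases 28 to 23 and 32 to 27. Between Mcpt8 and Mcpt1 the longest identical run was 8 bases, with 13 bases aligned. Between Cma1 and Mcpt1 it was 10 bases, and 67 of 94 aligned bases (71.3%) were identical. That run lay at bases 33 to 24 before the start in Mcpt1 and at bases 171 to 162 in Cma1. Equal distances from the annotated starts therefore need not match between the Cma1 and Mcpt1 windows. The Cma1 window held GATA letters once, on the opposite strand at bases 79 to 74, and the Mcpt8 window held neither GATA nor TATA letters. Of 32851 promoter windows of this length in the table, 26.5% held GATA letters and 7.59% held TATAAA. The letters TGTGGT, the core of the RUNX motif searched on both strands, were in the Mcpt1, Mcpt4 and Mcpt8 windows and in 14.0% of all windows. TGGGAA, the letters bound by the Notch partner RBPJ, was on the opposite strand in Mcpt1 at bases 60 to 55 and in Mcpt4 at bases 64 to 59, in each sharing 1 base with the TGTGGT before it. It was in 21.6% of all windows on either strand. TTCNNNGAA, for STAT factors, and CATGTG or CACATG, for MITF, were in none of the 4 windows, against 7.02% and 12.3% of all windows. These matches describe letters and do not show binding.

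With mD1R, the signal of every member was higher. Each was higher in 3 of 3 mD1R arrays than in every PBS array, and all 6 probe sets passed an adjusted p of 0.05 in limma. Of all 27022 probe sets tested, 6.13% passed as higher with mD1R. The log2 changes of the members ran from 2.17 for Mcpt8 to 6.49 for Mcpt-ps1 with a median of 4.44, whereas the median of all tested probe sets was 0.00 and their 95th percentile 1.36. The groups did not overlap, with mD1R higher, in 17.3% of tested probe sets. In bulk RNA, more cells that carry a transcript and more of it per cell cannot be told apart. Values below are log2 signals as deposited, which do not rank different genes against each other, and changes are mD1R minus PBS with limma's standard error (SE).

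Cma1 encodes a chymase of connective tissue mast cells. Its log2 signals were 9.36, 8.60 and 8.23 in PBS replicates 1, 2 and 3, and 13.29, 13.40 and 11.32 in mD1R replicates 1, 2 and 3. The lowest mD1R array lay 1.96 above the highest PBS array, and the PBS level was well above the filter of 5.27. The change was 3.94 ± 0.55 (SE, n = 3 per group), a 15.3-fold rise with an adjusted p of 0.0113 in limma. Its rise ranked 24th of 27022 probe sets, and 7th with 32 added to the linear signals.

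Mcpt4 encodes the other chymase typical of connective tissue mast cells. It read 4.18, 1.87 and 4.12 with PBS and 8.64, 10.30 and 6.04 with mD1R. All 3 PBS arrays lay below the filter level and all 3 mD1R arrays above it, with a gap of 1.86 between the groups. The change of 4.94 ± 1.08 (adjusted p = 0.0265 in limma) starts from signals below the filter level. With 32 added to the linear signals, which damps low values, it was 3.09 with an adjusted p of 0.0358.

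Mcpt1 and Mcpt2, the mucosal mast cell chymase genes, were dim with PBS and bright with mD1R. Mcpt1 had log2 signals of 6.07, 6.06 and 5.33 with PBS and 11.47, 10.99 and 7.53 with mD1R. Mcpt2 had 6.03, 5.47 and 5.73 with PBS and 10.99, 12.19 and 8.12 with mD1R. In both genes the PBS arrays lay close together, while the mD1R arrays were spread over 3.94 and 4.07 units with replicate 3 lowest. Mcpt1 rose by 4.18 ± 0.92 (adjusted p = 0.0268) and Mcpt2 by 4.69 ± 0.88 (adjusted p = 0.0182), which are 18.2-fold and 25.8-fold.

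The pseudogene Mcpt-ps1 went from very low signals to clear ones. Its PBS signals of 2.62, 1.26 and 2.79 were near the bottom of the scale, and its mD1R signals were 8.35, 9.97 and 7.82. The groups lay 5.03 apart at their nearest arrays. A change of 6.49 ± 0.67 had an adjusted p of 0.00961 in limma, and with 32 added to the linear signals it was 3.63 with an adjusted p of 0.00791. Its rise ranked 1st of the 27022 probe sets on the deposited scale and 12th with 32 added, where Mcpt2 (4.07) and Cma1 (3.84) lay above it.

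Mcpt8, the basophil protease gene, was high in every array. It had 13.16, 12.14 and 11.64 with PBS and 14.15, 14.30 and 15.00 with mD1R. The nearest arrays of the groups, PBS replicate 1 and mD1R replicate 1, were 0.99 apart. The change was 2.17 ± 0.40, or 4.49-fold (adjusted p = 0.0166 in limma), and 338 probe sets had a larger change. With 32 added the change of Mcpt8 was 2.16 and ranked 190th.

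**Figure D1:**
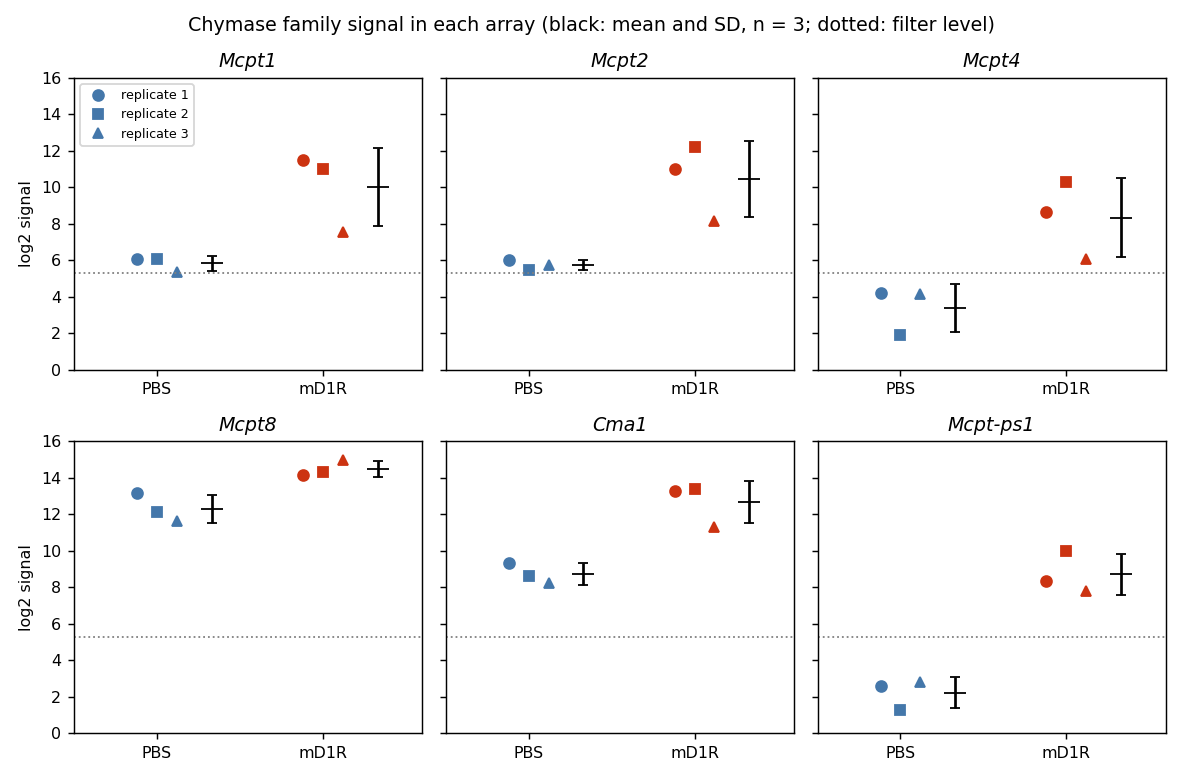
Log2 signal of each chymase family gene in the 3 PBS arrays (blue) and 3 mD1R arrays (red). Marker shape gives the replicate, black bars give the mean and SD (n = 3), and the dotted line is the filter level of 5.27. The groups do not overlap in any panel, Mcpt4 and Mcpt-ps1 lie below the dotted line with PBS, and mD1R replicate 3 (triangle) is the lowest mD1R array everywhere but in Mcpt8.

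**Figure D2:**
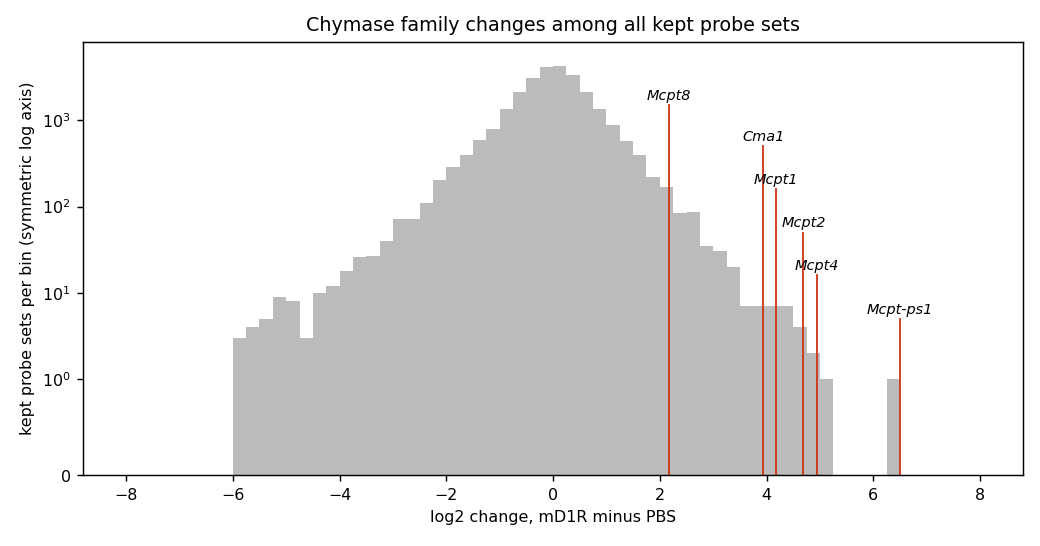
Number of kept probe sets by log2 change (mD1R minus PBS) in bins of 0.25, on a symmetric log axis, with a red line at each chymase family gene. The heights of the lines carry no value. Mcpt8 lies at 2.17, Cma1, Mcpt1, Mcpt2 and Mcpt4 between 3.94 and 4.94, and Mcpt-ps1 at 6.49 at the right end.

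Mcpt4 and Mcpt-ps1 passed the filter on low values only through their mD1R arrays, so their passing was tied to a difference, and the count of 6 is not support beyond each gene's own values. Without a filter, where 3.11% of 45037 probe sets passed as higher, all 6 members passed, with adjusted p between 0.00868 (Mcpt-ps1) and 0.0312 (Mcpt4) in limma. The calls depended on which array was left out. With any 1 array left out all 6 remained higher and had an unadjusted p under 0.05, but the number past the adjusted threshold varied. Without PBS replicate 1 Mcpt8, Cma1 and Mcpt-ps1 passed, and without PBS replicate 2 or mD1R replicate 2 Cma1 and Mcpt-ps1 did. Leaving out mD1R replicate 1 kept Mcpt2, Mcpt8, Cma1 and Mcpt-ps1. Without PBS replicate 3 none passed, nor did any of the 27022 probe sets, of which 5853 then had an unadjusted p under 0.05. Without mD1R replicate 3, the array in which most members were lowest, all 6 passed. The changes then were 5.42 for Mcpt1 (adjusted p = 0.000461), 5.85 for Mcpt2 (0.000465), 6.08 for Mcpt4 (0.00312), 4.61 for Cma1 (0.000516), 6.94 for Mcpt-ps1 (0.00128) and 1.91 for Mcpt8 (0.0160).

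**Figure D3:**
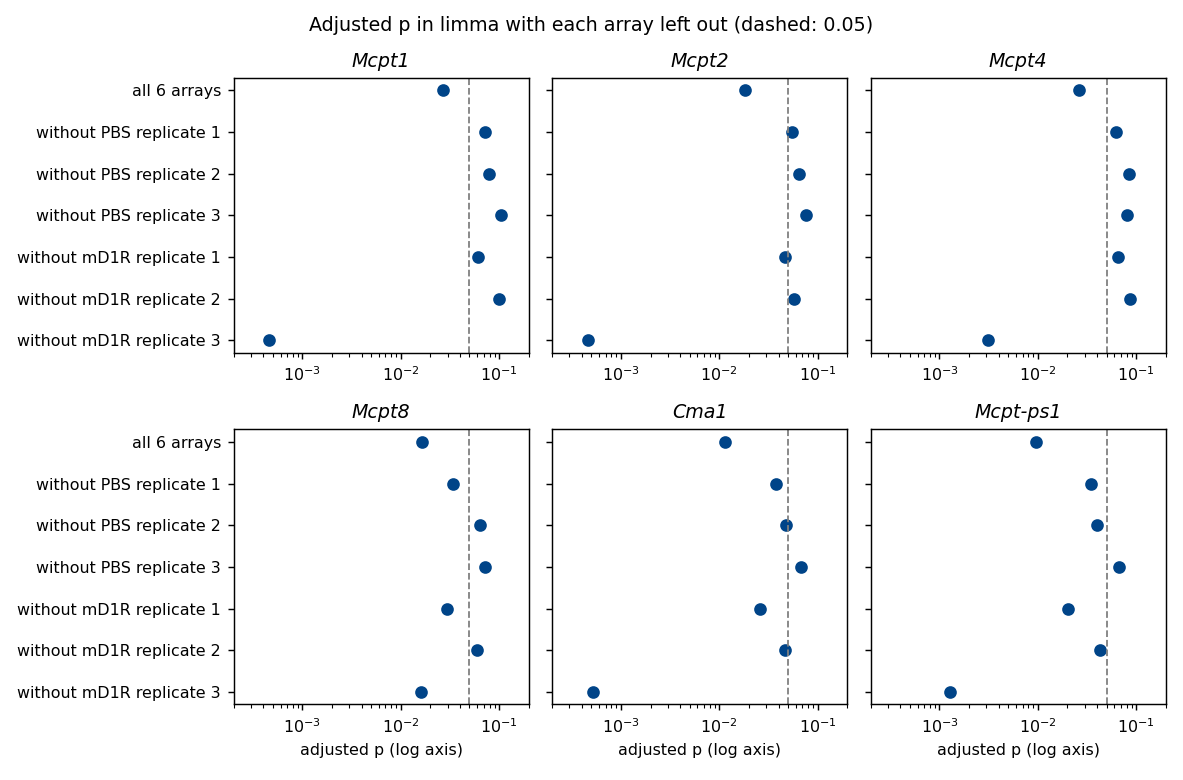
Adjusted p in limma (log axis) for each chymase family gene with all 6 arrays and with each array left out in turn; the dashed line is 0.05. Mcpt1 and Mcpt4 pass in 1 of the 6 reduced sets, that without mD1R replicate 3, and Cma1 and Mcpt-ps1 in 5 of 6.

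The mD1R arrays did not show 1 common chymase pattern. In replicate 3 the lowest signal of the group was found for 5 of the 6 members, and Mcpt8 had its highest. Over the mean of the PBS arrays Mcpt1 was 50.4-fold and 36.1-fold higher in mD1R replicates 1 and 2 and 3.28-fold in replicate 3. Mcpt2 was 38.1-fold, 87.0-fold and 5.19-fold higher in the same arrays. The basophil gene went the other way, with log2 differences of 1.83, 1.99 and 2.68. Against the mean of mD1R replicates 1 and 2, replicate 3 was lower by 3.70 for Mcpt1, where -3.70 was under all but 0.133% of tested probe sets. Cma1 differed by -2.02 and Mcpt-ps1 by -1.34, and Mcpt8 by 0.77, above 86.4% of tested probe sets. The middle 90% of probe sets lay between -1.09 and 1.33 in this difference, which rests on 1 array.

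**Figure D4:**
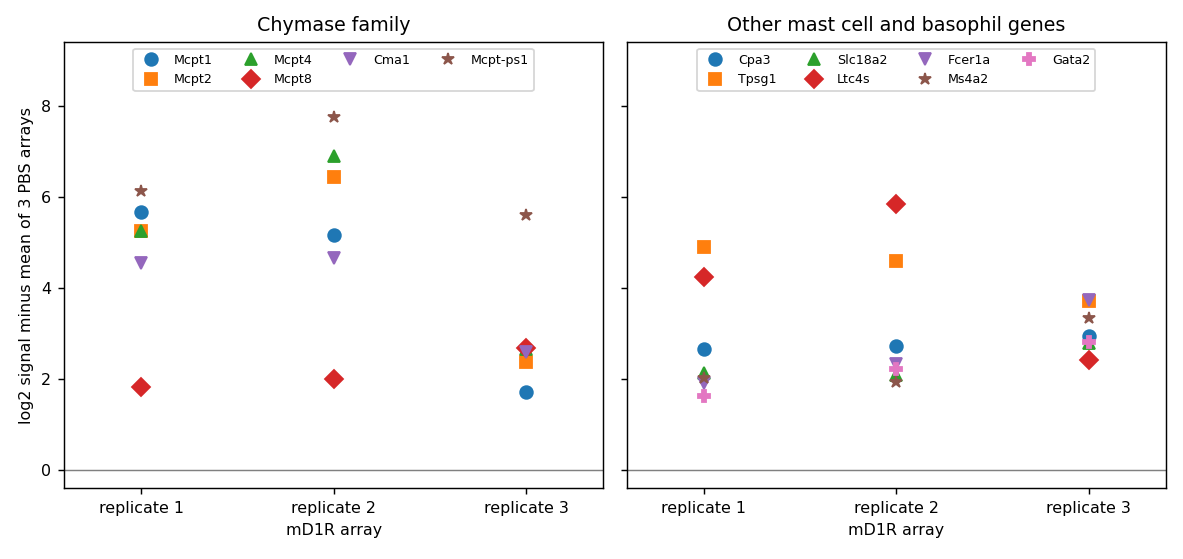
Log2 signal in each mD1R array minus the mean of the 3 PBS arrays, for the chymase family (left) and for other mast cell and basophil genes (right). Mcpt1, Mcpt2, Mcpt4 and Cma1 lie between 4.55 and 6.91 in replicates 1 and 2 and between 1.72 and 2.65 in replicate 3. Mcpt8, Fcer1a, Ms4a2, Gata2, Cpa3 and Slc18a2 are highest in replicate 3, and Ltc4s and Tpsg1 are lowest there. The right panel holds only genes called as higher. Csf2rb2, Csf2rb and Cd200r1, also called as higher, are not shown and were lowest in replicate 3 among the mD1R arrays.

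Whether members rose by different amounts was examined by taking the difference of 2 genes within each array. With 3 arrays against 3, an exact two-sided permutation test cannot go below p = 0.1. Of 15 pairs, 4 had groups that did not overlap, each of them a gene set against Mcpt-ps1, with an exact p of 0.1 and an adjusted p of 0.375. Mcpt-ps1 rose by 4.32 ± 1.03 (SE) more than Mcpt8 and by 2.55 ± 0.75 more than Cma1, with its PBS signals near the bottom of the scale. With 32 added to the linear signals, Mcpt8 minus Mcpt-ps1 was -1.46 in place of -4.32, and Cma1 minus Mcpt-ps1 was 0.21 in place of -2.55, a turn of sign. Mcpt4, below the filter level in all 3 PBS arrays, exceeded Mcpt8 in its rise by 2.77 ± 1.67 (exact p = 0.2). With 32 added that difference was 0.93. Mcpt1 and Mcpt2 differed in their rise by -0.51 ± 0.56 (exact p = 0.4), within the spread between arrays. None of the 15 differences could be called.

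Profiles were compared by the root mean square difference of log2 signals over the 6 arrays, each profile centred on its own mean, against 12319 other named genes. Mcpt2 was closest to Fstl1, a secreted glycoprotein gene (0.34), and to Ltc4s, the leukotriene C4 synthase gene (0.58), and Egr2, an early response factor gene, was the third (0.62). Its 4th and 5th neighbours among all genes were Mcpt1 (0.62) and Mcpt4 (0.66). For Mcpt1 the nearest were Egr2 (0.54), Ccn3 (0.63) and Fstl1 (0.66), with Mcpt2 (0.62) and Cma1 (0.64) nearer than Fstl1. For Mcpt4 the nearest gene of all was Mcpt2 (0.66), and outside the family Fstl1 (0.67), Ltc4s (0.83) and the growth factor gene Igf1 (0.90). Cma1 was nearest to Mfge8 (0.24), a gene for a bridge protein in the uptake of dying cells, to Anpep (0.32) and to the lysyl oxidase gene Lox (0.38). Mcpt-ps1 was nearest to Mcpt4 (1.08) and then to Tpsg1 (1.19), a tryptase gene, with Igf1 (1.33) and C1s1 (1.35) next outside the family. Mcpt8 had other neighbours, Gpr34 (0.26), Ms4a2 (0.30) and Pxdc1 (0.31). Ms4a2 encodes a chain of the high-affinity IgE receptor, which mast cells and basophils carry. All other members were farther from Mcpt8 than 7734 or more genes. Seen from those members, Mcpt8 ranked between 236th (from Mcpt-ps1) and 789th (from Mcpt1) of the 12319 genes. The distance is not scaled, so the smaller change of Mcpt8 enters both kinds of rank. These distances describe 6 arrays, and the difference between the groups enters every one of them.

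Few other genes of the cluster could be tested. Of the 16 genes from Cma1 to Gzmb (coding genes and Mcpt-ps1), 14 had a probe set of their own and 9 passed the filter. Apart from the members the cluster has 10 genes, of which 5 lay below the filter and 3 passed it. Of those 3, 1 rose, where 8.49% of all named genes tested rose and 7.09% fell. That gene was Gzmb, which encodes granzyme B of cytotoxic cells, at the far end from Cma1. Gzmb had log2 signals of 12.65, 13.19 and 12.87 with PBS and 14.35, 14.23 and 14.60 with mD1R, a change of 1.49 ± 0.20 (adjusted p = 0.0109 in limma). Ctsg, the cathepsin G gene next to Mcpt8, had 14.13, 13.55 and 13.77 with PBS and 13.24, 12.84 and 14.58 with mD1R. Its change of -0.27 ± 0.42 did not pass (adjusted p = 0.715), and the groups overlapped. Gzmc changed its mean by 0.51 ± 0.48, which did not pass (adjusted p = 0.526). The granzyme genes Gzme, Gzmd, Gzmg, Gzmn and Gzmf lay below the filter, where changes ran from -1.71 to 1.42 and none passed without a filter. Of 4 coding genes on each side of the cluster, 4 of the 8 passed the filter, 0 rose and 1 fell, Cenpj, a centrosome gene (-0.73 ± 0.20, adjusted p = 0.0480). The rise of Gzmb was not called without PBS replicate 3, and the fall of Cenpj was called only without mD1R replicate 3 among the reduced sets.

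**Figure D5:**
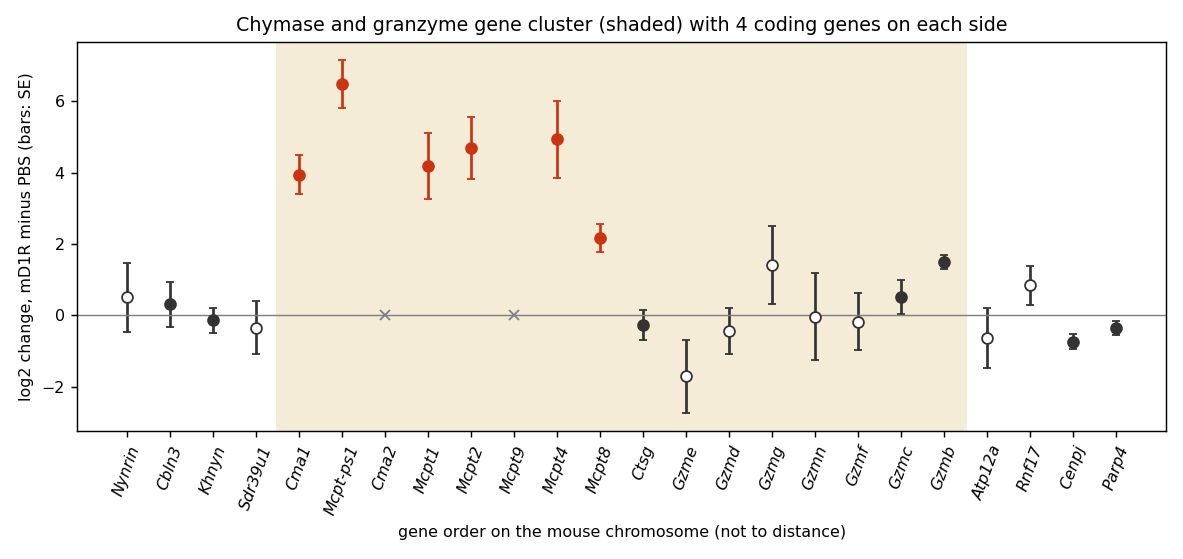
Log2 change (mD1R minus PBS, bars SE) of the genes of the chymase and granzyme cluster, shaded, and 4 coding genes on each side, in gene order on chromosome 14 and not to distance. Members are red, open circles lie below the filter, and crosses mark Cma2 and Mcpt9, which have no probe set of their own. The 6 members and Gzmb pass as higher.

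Of 12 genes for their activation, storage and inhibition 8 were tested, and 2 rose and 0 fell, with a median change of 0.66. Among all 12320 named genes tested 8.49% rose and 7.09% fell, with a median of 0.09; over all probe sets tested 6.5% fell. Ndst2, an enzyme that sulfates the heparin of mast cell granules, rose by 0.96 ± 0.22 (adjusted p = 0.0308) from a mean log2 signal of 9.19 ± 0.19 (SD, n = 3) with PBS to 10.15 ± 0.31 with mD1R. Ctss, a lysosomal cathepsin gene that is not particular to mast cells, rose by 0.86 ± 0.22 (adjusted p = 0.0381). Ctsc, for the activating cathepsin C, differed by 0.68 ± 0.26 (adjusted p = 0.129), and Srgn, for serglycin, by 0.04 ± 0.23 (adjusted p = 0.926). Both were named after their values were seen. The count of 2 was 0 without any 1 PBS replicate, without mD1R replicate 2 or with no variance trend, 1 without mD1R replicate 1, and 3 without mD1R replicate 3.

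Other granule and mediator genes of mast cells rose in part. Of 11 genes 8 were tested, 4 rose and 0 fell, with a median of 2.42. The shares over all named genes tested were 8.49% risen and 7.09% fallen. Cpa3, the carboxypeptidase stored with chymases, had log2 signals of 12.16, 11.69 and 11.17 with PBS and 14.33, 14.40 and 14.61 with mD1R. Its 3 mD1R arrays were closer together than those of Mcpt1 or Mcpt2. The change of Cpa3 was 2.78 ± 0.26 (adjusted p = 0.00778 in limma). Tpsg1 rose by 4.41 ± 0.48, the amine transporter gene Slc18a2 by 2.34 ± 0.24 and Ltc4s, which is named for its likeness to Mcpt2, by 4.17 ± 0.85. For the tryptase gene Tpsb2 the difference of 2.49 ± 1.02 missed the threshold (adjusted p = 0.148), and Tpsab1 lay below the filter. Hdc, the histamine-forming enzyme gene, differed by -1.34 ± 0.55 (adjusted p = 0.150), with mD1R signals of 10.15, 10.58 and 12.54 against 12.15 to 12.59 with PBS. Those last 3 genes were named after their values were seen. Without PBS replicate 3 none of the list passed, and without mD1R replicate 3, 4 rose and 2 fell.

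Among 23 regulators and receptors linked to mast cells and basophils 22 were tested, and 4 rose and 1 fell, with a median of 0.43. The shares over all named genes tested were again 8.49% and 7.09%. Csf2rb2 and Csf2rb, which encode signalling chains of the IL-3 receptor family, rose by 2.35 ± 0.21 and 1.08 ± 0.19. Among the mD1R arrays both were lowest in replicate 3, with 13.77, 13.55 and 13.06 for Csf2rb2 and 14.80, 14.75 and 14.42 for Csf2rb. Gata2, a factor that mast cells and basophils need, rose by 2.22 ± 0.30 with signals of 10.12, 10.19 and 9.73 with PBS and 11.64, 12.23 and 12.84 with mD1R. Its highest array was mD1R replicate 3, as for Mcpt8. Mitf, a mast cell factor named after its values were seen, rose by 1.89 ± 0.38 (adjusted p = 0.0206) with mD1R signals of 11.94, 11.20 and 10.32, of which replicate 3 was the lowest, and a second probe set gave 1.79 and did not pass. Smad3, which carries TGF-beta signals, fell by 1.44 ± 0.35 (adjusted p = 0.0342). The receptor gene Kit, on mast cells and on the gate itself, differed by 1.35 ± 0.49 (adjusted p = 0.109), with signals of 9.97, 8.85 and 9.21 with PBS and 11.37, 11.13 and 9.58 with mD1R. Without PBS replicates 2 and 3, 2 and 0 of the list rose. Without mD1R replicate 2, 2 rose, and without mD1R replicate 3, 7 did. The fall of Smad3 passed without mD1R replicate 1 or 3 and was lost without mD1R replicate 2 or any 1 PBS replicate.

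Markers of several cell types differed between the groups beside the chymases. For comparison, 8.49% of all named genes tested rose and 7.09% fell. Of 12 mast cell markers other than chymases 9 were tested, and 6 rose and 0 fell, with a median of 2.43. Their summed signal (log2 of the summed linear signals) was 13.53 to 13.84 with PBS and 15.30 to 16.13 with mD1R. Of 8 basophil markers other than Mcpt8 6 were tested, and 5 rose and 0 fell, with sums of 13.79 to 13.99 and of 15.29 to 15.60. Csf2rb was the brightest basophil marker in every array, at 13.34 to 13.75 with PBS and 14.42 to 14.80 with mD1R. It therefore weighs most in the basophil sums. Fcer1a, Ms4a2 and other genes stand in more than 1 list. Cyp11a1, a steroid-forming enzyme gene of the mast cell list, rose by 3.41 ± 0.33 (adjusted p = 0.00961), though its dimmer probe set gave 1.18 and did not pass (0.139), and Cd200r1, a receptor gene of the basophil list, by 1.99 ± 0.24 (adjusted p = 0.00968). Fcer1a, the IgE-binding chain of the receptor that mast cells and basophils share, had 10.62, 10.24 and 9.84 with PBS and 12.15, 12.56 and 13.96 with mD1R, where replicate 3 was again highest. Cd200r1, with 11.58, 11.42 and 10.98 in mD1R replicates 1, 2 and 3, was instead lowest there. No marker of either list was listed at 0 in any array. Of 10 macrophage markers 5 rose and 0 fell, with sums of 14.95 to 15.02 with PBS and 15.91 to 17.21 with mD1R. Msr1, a scavenger receptor gene, had 12.70, 12.10 and 11.41 with mD1R, the lowest in replicate 3, and 1 of its 4 probe sets did not pass (1.20, adjusted p = 0.0771). Of 11 neutrophil and granulocyte progenitor markers 0 rose and 1 fell, Mmp9, and their sum was 17.97 to 18.25 with PBS and 15.04, 16.67 and 18.20 in mD1R replicates 1, 2 and 3. Replicate 3 thus lay in the PBS range in this sum, in which the brightest genes weigh most. In replicate 3 Mpo (13.93), Prtn3 (13.52), Ms4a3 (12.53) and Mmp9 (12.63) were lower than in every PBS array. Ctsg (14.58), S100a8 (16.03), S100a9 (15.96) and Ngp (15.39) were higher than in every PBS array. Of these genes, all but Mmp9 were named after their values were seen. Of 5 eosinophil markers tested 0 rose and 0 fell, and their sum was 11.08 to 14.38 with PBS and 8.92, 8.61 and 13.05 with mD1R. Of 9 cytotoxic lymphocyte markers 1 rose, Gzmb, and 4 fell, among them the receptor genes Klrd1 and Ncr1. Of 4 endothelial markers tested Pecam1 rose, and their sums, with 3 genes below the filter included, were 9.78 to 10.87 and 11.05 to 12.31. Below the filter, Cdh5 and Emcn were lower in every mD1R array than in any PBS array, with changes of -2.65 (adjusted p = 0.0532 without a filter) and -1.41 (0.265), and both were named after their values were seen. The part of these cell types in the chymase rise was not tested. Leaving out PBS replicate 3 gave 0 calls in each list, and without mD1R replicate 3, 7 mast cell, 5 basophil and 6 macrophage markers rose and 8 neutrophil and 3 eosinophil markers fell. Calls were then more frequent in general, with 5554 of 27022 probe sets passing in either direction against 3413 with all 6 arrays.

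Of 12 markers of the KSL gate and its lineage panel 7 were tested, and 1 rose and 1 fell. Over all named genes tested 8.49% rose and 7.09% fell. With 7 genes, 1 call each way is near those shares, so the counts say little about the gate. Cd34, a progenitor antigen gene, had 9.41, 8.03 and 7.98 with PBS and 9.89, 10.96 and 10.49 with mD1R, a rise of 1.98 ± 0.43 (adjusted p = 0.0263). Flt3, a cytokine receptor gene of multipotent progenitors, had 8.72, 8.04 and 8.64 with PBS and 5.45, 7.56 and 6.17 with mD1R and fell by 2.08 ± 0.52 (adjusted p = 0.0377). The rise of Cd34 was lost without PBS replicate 2 or 3 or mD1R replicate 2, and the fall of Flt3 passed only without mD1R replicate 2 among the reduced sets. Of 24 genes outside the family whose calls are given here, 0 passed when PBS replicate 3 was left out, 9 when PBS replicate 2 was, 12 when mD1R replicate 2 was, and 15 to 23 in the other reduced sets. Ly6a, for Sca-1, was not analysed here because it had no probe set with a single symbol. Ptprc, the leukocyte antigen gene, had 13.29 to 14.14 over all arrays, Itgam, a lineage antigen gene of myeloid cells, 11.56 to 12.31, Cd3e 3.53 to 6.55 and Cd8a 4.54 to 6.48, and none of these 4 passed. A second, dimmer probe set of Ptprc did pass, with a change of -1.89 (adjusted p = 0.0130). Cd4 lay below the filter. On the first principal component, with 56.9% of the variance, mD1R replicate 3 lay at 12.6, between the PBS arrays (-79.4 to -64.5) and the other mD1R arrays (93.6 and 108.4).

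By their spike-in controls the arrays form 2 sets, each with arrays of both groups. The BioB control relative to the others was -3.64 to -3.50 in PBS replicate 1 and mD1R replicates 1 and 2, and -6.09 to -6.00 in PBS replicates 2 and 3 and mD1R replicate 3. Within each set 1 group has a single array. In the first set Mcpt1 was higher with mD1R by 5.17, Mcpt2 by 5.56, Mcpt4 by 5.29, Mcpt8 by 1.07, Cma1 by 3.98 and Mcpt-ps1 by 6.55. In the second set the differences were 1.84, 2.52, 3.04, 3.11, 2.91 and 5.79 in the same order. Every member was higher in both sets, and with the set as a block all 6 passed. The low mD1R array of 5 members falls in the second set, as do the 2 lowest PBS arrays of every member but Mcpt-ps1. This split and the difference of mD1R replicate 3 therefore cannot be told apart.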

How the data were processed

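The authors deposited log2 signals of 45101 probe sets, 64 of them controls, made with MAS5 per the submitters' processing notes; its version and settings are not given in the sources used here. From the values, every array had a 2% trimmed mean of 500 on the linear scale, and 239 to 422 values per array were listed at 0. MAS5 subtracts mismatch signals, so low values are noisy, and detection calls were not used here. Array medians were 6.07 to 6.42. The number of arrays limits the precision (median SE of a log2 change 0.31).

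Groups were taken from the sample titles. Values were used as deposited in limma 3.58.1 under R 4.3.3 (lmFit, eBayes with a variance trend, two-sided). The test covered the 27022 probe sets whose mean reached the 40th percentile of 5.27, and Benjamini-Hochberg adjustment ran over all of these at a threshold of 0.05. A gene outside the family was its brightest kept probe set with 1 symbol in the platform annotation. Changes of genes below the filter came from a fit without one. No list was tested as a set. Pairs of genes were compared by exact permutation in scipy 1.17.1. Promoter windows came from RefSeq (GRCm38.p6).

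Members and gene lists were chosen with earlier results of these data known. By rule the text names every member, the 3 nearest profiles per member and gate markers. It also names up to 3 called genes per list and direction, taken in order of p. Where a list had no call the rule gave 2 genes, but no eosinophil marker is named. Genes of the cluster are named for their place in it, and Cenpj as the called gene beside it. Other genes are said to have been named after their values were seen. Alternatives covered scaling, pseudocount, filter, variance model, array weights, blocks, threshold and each array left out.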

Additional observations from a re-analysis of the deposited data

How the results depend on the processing

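All 6 members stayed higher with mD1R under every alternative run, and all that were tested passed adjusted p 0.05 in limma unless an array was left out or the threshold was 0.01. A filter at the 60th percentile left out Mcpt4 and Mcpt-ps1. At a threshold of 0.01 only Mcpt-ps1 passed, 1 member, while the changes of 4.18 (Mcpt1), 4.69 (Mcpt2), 4.94 (Mcpt4), 2.17 (Mcpt8) and 3.94 (Cma1) did not, and 108 probe sets in all did. Against 3413 probe sets past the threshold, the number was 2213 with no variance trend and 6508 with array weights; the cause was not tested.

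With 1 array left out the number of probe sets past the threshold was 0 to 5554 and that of members 0 to 6. The change was 3.45 to 5.42 for Mcpt1, 3.81 to 5.85 for Mcpt2, 3.95 to 6.08 for Mcpt4, 1.83 to 2.59 for Mcpt8, 3.57 to 4.61 for Cma1 and 5.86 to 6.94 for Mcpt-ps1. Within the second spike-in set, where mD1R has 1 array, the differences of Mcpt1, Mcpt2, Mcpt4 and Cma1 were 1.84, 2.52, 3.04 and 2.91. Those of Mcpt8 were 1.07 in the first set and 3.11 in the second. Each had moved by more than 1 SD.

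In the lists around the chymases, with 41 of 57 genes tested, 11 genes rose and 1 fell, where 8.49% and 7.09% of all named genes did. With 1 array left out 0 to 15 rose and 0 to 3 fell. At a threshold of 0.01, 4 rose and 0 fell. The number that fell was 2 with the stricter filter or the spike-in set as a block, 0 with no variance trend and 5 with array weights. Of 408 counts of single lists under alternatives, 89 were more than 1.5 times off. Of 120 differences in change between pairs of members under alternatives 7 moved by more than the spread, all with 32 added to the linear signals, and 9 changed sign, none of them called. The 120 include, for each of the 15 pairs, a mean over kept probe sets. It could not differ from the main value because each member has 1 probe set. With 32 added, Mcpt-ps1 was set against Mcpt1 (-0.01), Mcpt2 (0.45), Mcpt4 (-0.54), Mcpt8 (-1.46) and Cma1 (0.21), each as the other gene minus Mcpt-ps1. Mcpt2 minus Mcpt4 was then 0.98 and Mcpt4 minus Cma1 -0.75. Of these 7 the sign turned for Mcpt2 and Cma1 against Mcpt-ps1 and for the last 2.

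Same-numbered replicates were not shown to be pairs. The correlation of their deviations was 0.313, 0.028 and 0.132 for numbers 1, 2 and 3, and the labels state no pairing. With the replicate number as a block 4619 probe sets and all 6 members passed. Depth has no counterpart here, and signals near the bottom of the scale limit the size of the changes of Mcpt4 and Mcpt-ps1.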

Other observations

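A probe set that the annotation gives to both Cma2 and Mcpt9, chymase relatives inside the same gene cluster, belongs to no comparison above because it names 2 genes, and it lay below the filter. Its log2 signals were 4.72, 1.97 and 2.51 in PBS replicates 1, 2 and 3, and 6.15, 5.54 and 5.19 in mD1R replicates 1, 2 and 3. The difference of 2.56 did not pass in limma without a filter (adjusted p = 0.110), although the 2 groups did not overlap.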
